A study of Mus musculus with 14 samples.

Results

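The miR-29 family was examined in small extracellular vesicles, particles enclosed by membrane and shed by cells, from mouse neutrophils. Its 6 members were mmu-miR-29a-3p, mmu-miR-29b-3p, mmu-miR-29c-3p, mmu-miR-29a-5p, mmu-miR-29b-1-5p and mmu-miR-29c-5p (the species prefix is left out from here on), taken by exact name from the 1695 mature miRNA names of the table. The vesicles came from primary Ly6G-positive bone marrow cells of wild-type female BALB/c mice, and all cells were kept for 48 h in culture. The DMSO group received the solvent alone, with 7 libraries. The 27HC group received 10 µM 27-hydroxycholesterol (27HC), an oxidised metabolite of cholesterol, with 7 libraries. The comparison asks how 27HC altered the vesicle content of this family, in a study of how such vesicles act on breast cancer cells. Each library label carries a pair of consecutive numbers whose meaning is not given, and nothing states that the libraries came from separate animals, so the tests measure the spread between these libraries, which may be technical.

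A miRNA is cut from an RNA hairpin as a duplex of a 5p and a 3p strand, of which usually 1 strand, the guide, is kept and the other, the passenger, is degraded. The guide pairs with messenger RNAs mainly through its seed, bases 2 to 8. The miR-29 guides are the 3p strands. They are known for repressing collagens and other matrix genes, the DNA methyltransferases Dnmt3a and Dnmt3b and the survival gene Mcl1. In breast cancer miR-29b is known for restraining metastasis.

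The sequences below are shown because the comparison turns on how little the 3 guides differ. All 6 members were matched to a RefSeq mature sequence (build GRCm38.p6), written 5′ to 3′ with the seed in capitals.

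miR-29a-3p: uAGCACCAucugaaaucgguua
miR-29c-3p: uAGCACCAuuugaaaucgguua
miR-29b-3p: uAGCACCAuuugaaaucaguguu
miR-29a-5p: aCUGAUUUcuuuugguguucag
miR-29c-5p: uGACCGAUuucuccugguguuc
miR-29b-1-5p: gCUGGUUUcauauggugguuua

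The 3 guides shared the seed AGCACCA, and among the 1431 names of the table with a RefSeq sequence these 3 alone had it. The 3 passengers each had a different seed. miR-29a-3p and miR-29c-3p, both 22 bases long, differed at a single base, C10U, counted from 1 at the 5′ end with the miR-29a base first. From miR-29c-3p to miR-29b-3p, which is 23 bases long, the changes were G18A, U21G and A22U over the first 22 bases. Reads of miR-29a-3p and miR-29c-3p can therefore be told apart only by 1 base. The rule used by the authors for reads that match several names is not given in the sources used here. Some pairs of names outside the family, such as miR-199a-3p and miR-199b-3p, had the same mean levels in both groups. A read may thus have been counted under more than 1 name. Equal levels of such pairs do not tell how reads of names that differ at 1 base were assigned. The 3′ end of miR-29b-3p holds AGUGUU, an element known to direct this miRNA to the nucleus. It was found, in the mature strand only, in 10 of the 1431 sequences (0.699%) and in no other member. GGAG and CCCU, short motifs known from miRNAs sorted into exosomes, occurred in 14.95% and 12.2% of the 1431 sequences and in 0 of the 6 members.

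The family comes from 2 pairs of hairpins. In RefSeq on GRCm38.p6, Mir29a lies on the minus strand of chromosome 6 at 31062660 to 31062747 and Mir29b-1 at 31063023 to 31063093, with 275 bases between them. Mir29b-2 lies on the plus strand of chromosome 1 at 195037040 to 195037120 and Mir29c at 195037547 to 195037634, with 426 bases between them. In GENCODE M21 both chromosome 1 hairpins lie within exons of the non-coding gene A330023F24Rik, and on the opposite strand within an exon annotated as UTR of Cd46, a complement regulator. Mir29a overlapped no other gene, and Mir29b-1 overlapped by 2 bases an exon of the non-coding gene Gm27019. The submitters' processing notes name the later build GRCm39, so these positions describe the annotation and not the authors' counting. miR-29b-3p is made from both pairs, and its counts do not tell them apart. The arms are shown in capitals on the Mir29a hairpin, the 5p strand first, since this hairpin gives most of the family's counts.

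Mir29a hairpin: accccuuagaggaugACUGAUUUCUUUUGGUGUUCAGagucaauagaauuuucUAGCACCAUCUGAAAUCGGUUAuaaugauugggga

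The 14 libraries held from 112914 to 871189 counts, with the deepest and the shallowest both in the DMSO group. Levels are given as CPM, counts relative to a fixed library size, with library sizes scaled by TMM, a method that corrects for differences in composition. On that scale the level still possible where a count was 0, taken as 3 counts, stood at 4.09 to 24.6 CPM, depending on the library. Whole profiles fell apart by replicate number: on the first principal component (36.5% of the variance) the replicates 1 to 4 of both groups scored from −11.9 to 0.24 and the replicates 5 to 7 from 4.97 to 7.85. In both groups the replicates 5 to 7 were all shallower than the replicates 1 to 4. Library totals were 112914 to 252014 against 265651 to 871189 counts with DMSO. With 27HC they were 119852 to 127014 against 229324 to 405902 counts. Depth and this split therefore cannot be told apart. The labels do not explain the split, so results are also given within it. The names listed as neutrophil and myeloid markers (miR-223 and miR-142a, both arms) were all present, although miR-142a is not confined to myeloid cells. These 4 names summed to 83291 to 216664 CPM in DMSO and 113054 to 149157 CPM in 27HC libraries. Called names, with an edgeR adjusted p under 0.05, made up 12.6% of all 239 tested names. Of 4 neutrophil and myeloid markers tested 2 were called, both miR-142a arms. Of 2 lymphoid markers tested 1 was called, miR-150-5p. Of the 1 erythroid, 4 stromal and endothelial and 1 liver marker tested 0 were called. The 3 called were each lower with 27HC. Log2 fold changes were −1.53 for miR-142a-3p (edgeR adjusted p 3.55e-05), −0.74 for miR-142a-5p (0.0223) and −0.97 for miR-150-5p (0.0134). Neither miR-223 arm was called, nor was the other lymphoid marker, miR-181a-5p (−0.079, edgeR adjusted p 0.789). Markers of other sources were lower but not absent: summed levels in DMSO and 27HC libraries were 505.2 to 1062 and 729.5 to 1126 CPM for 4 erythroid names, 1247 to 1686 and 980 to 1492 CPM for 2 lymphoid names, 1015 to 2269 and 974 to 2365 CPM for 6 stromal and endothelial names, and 2476 to 4587 and 1895 to 3672 CPM for the liver miRNA miR-122-5p. No marker was at 0 in every library. Their part in the miR-29 values was not tested. In such bulk samples fewer vesicles of a kind and less RNA per vesicle cannot be told apart.

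The 6 names together took close to 1% of each library in both groups. The share was lowest at 0.991%, with a median of 1.07% and a maximum of 1.21%, in DMSO libraries. In 27HC libraries it ran from 0.982% over a median of 1.03% to 1.25%. The groups overlapped, and the difference between the means was smaller than the spread between libraries: 1.09 ± 0.0780% and 1.08 ± 0.107% (SD, n = 7). No test was made on the sum of the members. The Wilson 95% interval of the share in the shallowest library, DMSO replicate 5, was 1.14 to 1.27%. Such intervals cover counting error only.

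The order of the guides was the same in all 14 libraries. miR-29a-3p stood above miR-29c-3p by 4.66 to 6.99 times in counts, and miR-29c-3p above miR-29b-3p by 3.24 to 12.1 times. By mean CPM over all libraries miR-29a-3p ranked 16, miR-29c-3p 53 and miR-29b-3p 123 of the 1695 names. The guides are nearly equal in length, but ligation and amplification differ between sequences, so the order is one of counts.

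miR-29a-3p, the member with the most counts, ran from 6897 CPM over a median of 8917 to 10456 CPM in DMSO libraries. In 27HC libraries it ran from 8305 over 9285 to 10267 CPM. The 27HC values lay wholly inside the DMSO range. The means were 8892 ± 1084 and 9261 ± 769.7 CPM (SD, n = 7).

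miR-29c-3p ran from 1254 over 1636 to 2204 CPM in DMSO libraries. In 27HC libraries it ran from 1211 over 1429 to 1542 CPM. The upper part of the DMSO range, held by replicates 1, 2, 3 and 5, was not reached by any 27HC library, while the lower ends overlapped. The means were 1663 ± 349.5 and 1402 ± 117.9 CPM (SD, n = 7).

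miR-29b-3p ran from 254.8 over 309.1 to 391.3 CPM in DMSO libraries. In 27HC libraries it ran from 107.1 over 227.6 to 440.6 CPM. Its 27HC libraries were spread on both sides of the DMSO range: replicates 1, 3, 4 and 6 lay under it and replicates 2 and 7 above it. The means were 307.1 ± 45.0 and 268.9 ± 122.6 CPM (SD, n = 7), resting on 40 to 287 and on 14 to 95 counts per library.

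**Figure D1:**
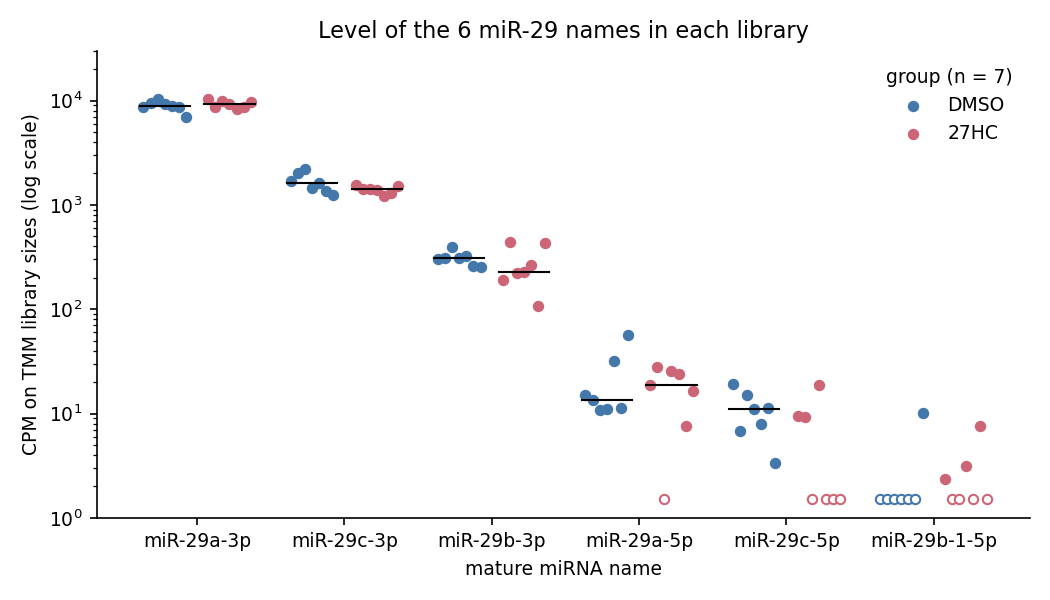
CPM of each miR-29 name in each library (log scale), with DMSO in blue, 27HC in red, 7 libraries each in order of replicate number, and a black line at each median above 0. Open circles at the foot stand for libraries with a count of 0. The 3 guides lie above 100 CPM in every library, the passengers at or under 57.0 CPM, and the groups overlap for each name.

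Across all names, 239 passed the filter on low counts and 30 of them (12.6%) were calls, with a p under 0.05 after edgeR's test and adjustment over all tested names. The tested names are not all separate measurements. miR-199a-3p and miR-199b-3p had the same mean levels, and the called miR-3473b and miR-3473e had nearly the same. Of the 6 members, the 3 guides passed the filter, in libraries of both groups, and the 3 passengers did not. Of the 3 guides 0 were called by edgeR and 0 had an unadjusted p under 0.05, and both counts were also 0 in DESeq2 and in limma-voom. The log2 fold change of miR-29a-3p was 0.059 (SE 0.091, 95% interval −0.13 to 0.25, edgeR adjusted p 0.818). That of miR-29c-3p was −0.25 (SE 0.13, interval −0.51 to 0.018, unadjusted p 0.0660, edgeR adjusted p 0.250). That of miR-29b-3p was −0.20 (SE 0.25, interval −0.74 to 0.34, edgeR adjusted p 0.752). The interval was narrowest for miR-29a-3p and widest for miR-29b-3p. The median of the 3 was −0.20, against 0.010 over all tested names, of which 60 had a lower fold change than miR-29c-3p.

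Single libraries moved these values by more than 1.5 times without making a call. Without DMSO replicate 3, the deepest library, miR-29c-3p was at −0.11, miR-29a-3p at 0.16 and miR-29b-3p at −0.079. All 3 were then higher than in the main fit, and the median over the tested names also rose, from 0.010 to 0.061. Without 27HC replicate 6, with 14 counts of miR-29b-3p, that name was at −0.0045. In replicates 1 to 4 alone the values were 0.079 for miR-29a-3p, −0.29 for miR-29c-3p and −0.22 for miR-29b-3p. In replicates 5 to 7 alone they were 0.13, −0.068 and −0.052. An interaction term for this split gave edgeR adjusted p-values of 0.841, 0.573 and 0.896.

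**Figure D2:**
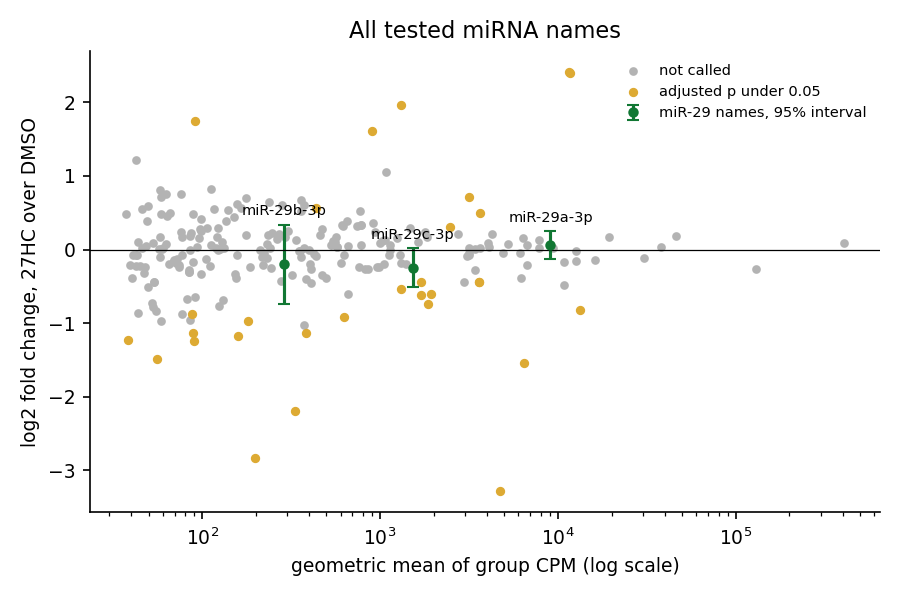
Log2 fold change of 27HC over DMSO (vertical axis) against the geometric mean of the group CPM (log scale) for the 239 tested names, with calls in yellow and the 3 miR-29 guides in green with 95% intervals. All 3 intervals cross 0, and that of miR-29a-3p is the narrowest of the 3.

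The balance between the guides differed between groups where their single levels were not called. Ratios within a library need no scaling between libraries. In DMSO libraries there were 4.66 to 6.34 counts of miR-29a-3p per count of miR-29c-3p, with a median of 5.45. In 27HC libraries there were 6.06 to 6.99, with a median of 6.66. Put as a share of both names, miR-29c-3p took 15.7 ± 1.62% in DMSO and 13.2 ± 0.542% in 27HC libraries (SD, n = 7). All 27HC libraries but replicate 2, at 14.2%, fell below the whole DMSO range. All DMSO libraries but replicates 4 and 6, at 13.7% and 13.6%, were above the whole 27HC range.

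The log2 ratio of miR-29c-3p to miR-29a-3p was −2.43 ± 0.18 in DMSO and −2.72 ± 0.067 in 27HC libraries (SD, n = 7). This is 18.1% less miR-29c-3p per miR-29a-3p. For the log2 difference, −0.29, the two-sided exact permutation test, over every split into 7 and 7 libraries, gave p = 0.00233, and it cannot go below 0.000583. Adjusted over the same ratio for all 238 other tested names to miR-29a-3p, the exact permutation p was 0.0277. Among these 238 ratios 57 (23.9%) had an unadjusted p under 0.05 and 26 (10.9%) were called after adjustment, 21 of them (8.82%) lower relative to miR-29a-3p, so that a lower ratio to miR-29a-3p was not particular to miR-29c-3p. The adjustment over all names was added after the values had been seen.

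In replicates 1 to 4 alone this log2 difference was −0.35, with p = 0.0571 in the exact permutation test, which cannot go below 0.0286 there. In replicates 5 to 7 alone it was −0.21, the groups did not overlap, and p = 0.1 is the smallest the exact permutation test can give. With libraries exchanged only inside these sets, the exact permutation p was 0.00429. Leaving out any 1 library gave differences from −0.33 to −0.25, with exact permutation p-values from 0.00117 to 0.00641. From the deepest to the shallowest DMSO library (replicates 3, 4, 2, 1, 7, 6 and 5) the share of miR-29c-3p was 17.4, 13.7, 17.7, 16.4, 15.4, 13.6 and 15.5%. In the 27HC libraries it ran from 12.5 to 14.2%, with 13.1% in the deepest, replicate 1, and 13.5% in the shallowest, replicate 7. The part of depth in the difference was not tested.

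**Figure D3:**
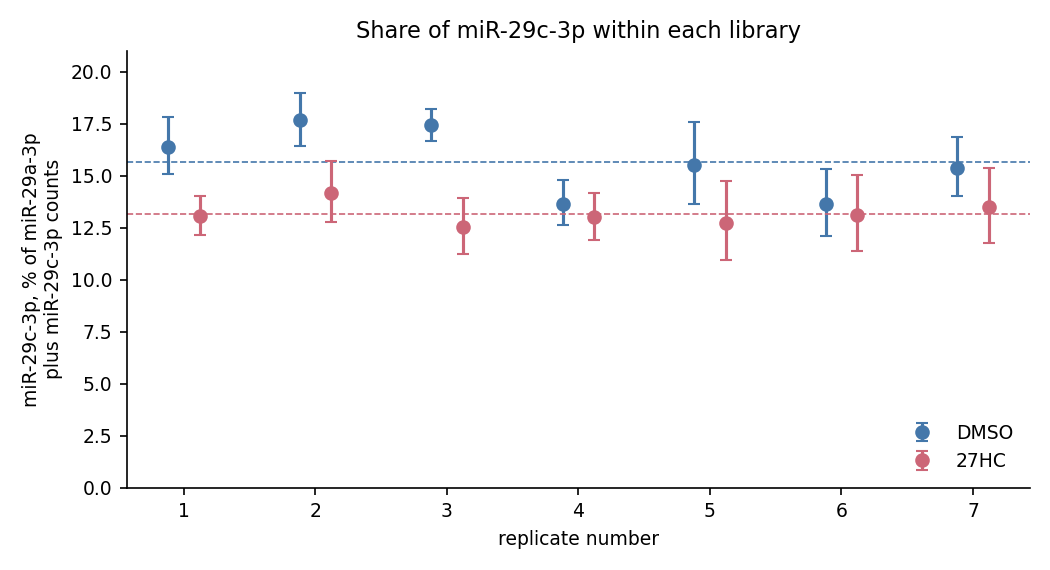
Share of miR-29c-3p in the counts of miR-29a-3p plus miR-29c-3p (vertical axis, percent) in each library by replicate number, with Wilson 95% intervals for counting error and a dashed line at each group mean. The 27HC libraries (red) sit between 12.5% and 14.2%, and the DMSO libraries (blue) between 13.6% and 17.7%.

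The ratio of miR-29b-3p to miR-29a-3p showed another pattern, a spread that was wide in 27HC libraries. It stood at 0.0305 to 0.0374 in DMSO and at 0.0125 to 0.0509 in 27HC libraries. The log2 ratios were −4.85 ± 0.10 and −5.22 ± 0.70 (SD, n = 7). They differed by −0.37, with p = 0.191 in the exact two-sided permutation test (adjusted over the 238 ratios, 0.498). Without 27HC replicate 2 it was −0.53 with an exact permutation p of 0.0396, and without 27HC replicate 6 it was −0.20. The replicates 1 to 4 gave −0.36 and the replicates 5 to 7 gave −0.39, with p = 0.343 and p = 0.8 in exact permutation tests. The ratio of miR-29b-3p to miR-29c-3p, given as a description, had log2 values of −2.42 ± 0.16 with DMSO and −2.50 ± 0.66 with 27HC (SD, n = 7).

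The spread of these ratios was set against counting noise, for which the chi-square per degree of freedom is close to 1. For miR-29b-3p against miR-29a-3p it was 0.472 in DMSO libraries and 12.01 in 27HC libraries. For miR-29c-3p against miR-29a-3p it was 7.33 in DMSO and 0.534 in 27HC libraries. The SD of log2 CPM of miR-29b-3p was 0.68 in 27HC and 0.20 in DMSO libraries. This ratio of 3.38 was reached by 3 of the 239 tested names (1.26%), itself included, and the median over the names was 0.901. These comparisons of spread were made after the values had been seen and carry no test.

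**Figure D4:**
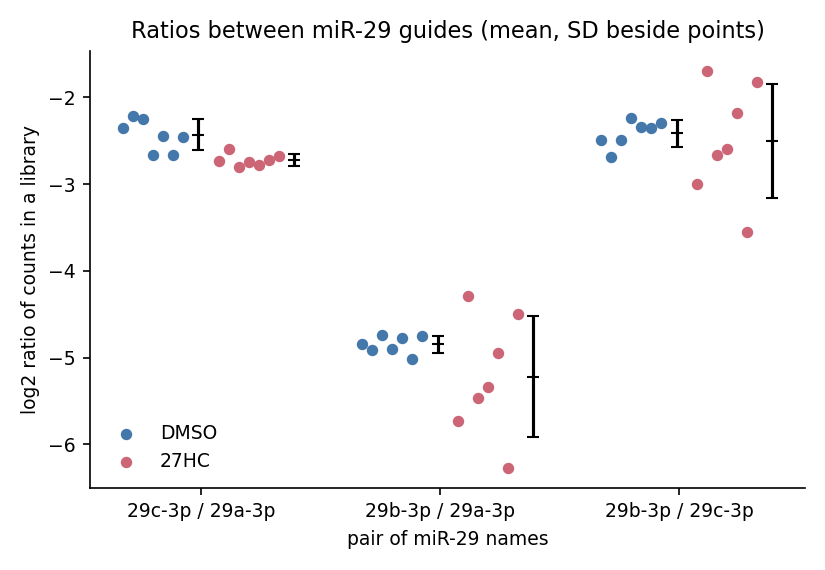
Log2 ratio of counts within each library (vertical axis) for the pairs of guides, with DMSO in blue, 27HC in red, points in order of replicate number, and the mean ± SD of each group as a black bar. The 27HC points of the ratio of 29c-3p to 29a-3p are low and close together, while those of both ratios with 29b-3p are scattered around the DMSO points.

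Since miR-29a-3p and miR-29c-3p differ at 1 base, their counts were also merged. The merged name had a log2 fold change of 0.087 (SE 0.089, 95% interval −0.10 to 0.27, edgeR adjusted p 0.620). This value is above those of both single names, because the scaling was computed anew and shifted. The median over the tested names was 0.072 in the merged fit against 0.010 in the main fit, and miR-29b-3p stood at −0.13 against −0.20. The merged value is therefore not directly comparable with the single ones. The summed count does not depend on how reads were divided between the pair, provided that each read was counted under only 1 of the names. A read counted under both would enter the sum with each name, and a read left out as ambiguous would be missing from it. The counting rule is not given, so this condition could not be checked. The part of the assignment in the ratio of miR-29c-3p to miR-29a-3p was not tested.

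The passenger strands were at the edge of detection. miR-29a-5p had 43 counts over the 7 DMSO libraries and 28 over the 7 with 27HC, or 0.00181% and 0.00180% of all counts. It was present in 7 and in 6 libraries, at up to 57.0 CPM in DMSO replicate 7 and up to 27.8 CPM with 27HC. miR-29c-5p had 26 and 12 counts, 0.00110% and 0.000773% of all counts, and was present in 7 DMSO libraries but in 3 with 27HC. These 3 were replicates 1, 2 and 4. In the 27HC group the shallowest replicates, 5, 6 and 7, with 124574, 127014 and 119852 counts in all, had 0 counts of it. Replicate 3 of that group, with 233442, also had 0, and replicate 2, with 229324, had 2. The shallowest library, DMSO replicate 5, with 112914, had 1 count of it. The part of depth in its absence was not tested. miR-29b-1-5p had 3 counts in each group, in 1 DMSO library and in 3 with 27HC, and a count of 0 still allows the levels given above.

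The guide exceeded its passenger more than 100-fold in both groups. For miR-29a there were 483.1 counts of the 3p per count of the 5p strand in DMSO and 517.6 in 27HC libraries. For miR-29c there were 154.3 and 182.6. The passenger took 0.207% (Wilson 95% interval 0.153 to 0.278%) and 0.193% (0.133 to 0.279%) of both miR-29a strands, and 0.644% (0.440 to 0.942%) and 0.545% (0.312 to 0.9497%) of both miR-29c strands. The intervals, which pool the libraries of a group, overlapped between groups for both hairpins. For miR-29b-1 no such ratio can be read, since miR-29b-3p also comes from Mir29b-2.

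In a fit with no filter on low counts, which is the only one to test the passengers, their log2 fold changes were −0.25 for miR-29a-5p (SE 0.63), −0.77 for miR-29c-5p (SE 0.82) and 0.33 for miR-29b-1-5p (SE 1.19), with edgeR adjusted p-values from 0.683 to 0.948. The 95% intervals were −1.48 to 0.98, −2.38 to 0.84 and −1.99 to 2.66, so that even large differences in the passengers were not detectable at this depth.

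Lists of other miRNAs that act on the same kinds of target as miR-29 were read against the 12.6% of names called. Of 10 miRNAs known for matrix genes and fibroblast activation, 7 were tested and 0 were called, with a median log2 fold change of −0.020. They included miR-21a-5p, which promotes fibrosis through Spry1, at −0.020 (SE 0.081), and miR-30b-5p, of a family that targets connective tissue growth factor, at −0.96 (SE 0.35, edgeR adjusted p 0.0961). Of 9 miRNAs known to target DNA methyltransferases, Tet enzymes or Ezh2, 8 were tested and 0 were called, with a median of 0.078. Among them miR-148a-3p, which targets Dnmt1 and Dnmt3b, was at 0.18 (SE 0.13), and miR-26a-5p and miR-26b-5p, which target Ezh2, at −0.48 (SE 0.18, edgeR adjusted p 0.106) and −0.60 (SE 0.20, edgeR adjusted p 0.0687). Of 6 miRNAs known to target Mcl1 or Bcl2, all were tested and 0 were called, with a median of 0.042. miR-15a-5p, a repressor of Bcl2, was at 0.017 (SE 0.076). An edgeR unadjusted p under 0.05 was found for 1, 2 and 0 members of the lists, namely miR-30b-5p in the first and both miR-26 names in the second. DESeq2 and limma-voom also called 0 members of each list, and their unadjusted counts were the same except that limma-voom added miR-30c-5p to the first.

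The names that kept the most constant ratio to miR-29a-3p over the 14 libraries were sought outside the family, by the SD of the difference in log2 CPM. They were miR-322-5p (0.10), miR-15a-5p (0.13) and miR-30e-5p (0.13), against a median SD of 0.48 over the tested names. miR-29c-3p had an SD of 0.20 and ranked 20 among all other tested names, and miR-29b-3p had 0.51 and ranked 126. The SD of miR-29c-3p was under that median, and the SD of miR-29b-3p a little above it. The 3 closest names were picked for their low SD, so ranking behind them shows nothing particular to the guides. None of the 3 closest names was called, with log2 fold changes from −0.047 to 0.017. Abundant names have less counting noise, which lowers this SD by itself, and these 3 had mean levels of 6145, 7873 and 3429 CPM.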

How the data were processed

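Small RNA from neutrophil vesicles was sequenced in 14 libraries made with the QIAseq miRNA kit, per the labels' protocols. The authors deposited a table of raw counts, in whole numbers, with a value for each mature miRNA name in each library. The submitters' processing notes name R 4.1.2, edgeR, limma and the build GRCm39. The aligner, the counting rule and the use of molecular identifiers are not given in the sources used here, so a count may be a read or a molecule. Every row and column was matched to a label, with 0 unmatched.

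Here 27HC was compared with DMSO by edgeR 4.0.16 in R 4.3.3 (quasi-likelihood test, treatment as the only term, TMM scaling, filterByExpr with a minimum count of 10 and total of 15, Benjamini-Hochberg adjustment over the 239 names left, which held 99.4% of counts). Standard errors were the fold change over the root of its F value. Ratios of 2 names were log2 of counts plus 0.5, compared by exact permutation of libraries where both names averaged at least 10 counts, which left 2 of 5 planned ratios. Adjusted over these 2, their exact permutation p-values were 0.00466 and 0.191. Alternatives used DESeq2 1.42.0, limma-voom 3.58.1, other scalings, filters, covariates and subsets. Both tests were checked on simulated data. The 42 pairs of libraries within groups all differed by more than sampling noise (lowest chi-square per degree of freedom 5.65).

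The members and lists were chosen with earlier results of these data known. All 6 members are described. The lists, the markers and the rule for the 3 closest names were written down with the design. Sequences and positions came from RefSeq (GRCm38.p6) and overlaps from GENCODE M21.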

Additional observations from a re-analysis of the deposited data

Results flagged for a closer look

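A library far from the rest of its group was found in 2 of 18 groups of 7 examined, over the levels of the 6 names, the family share and both tested ratios, where chance alone gives 0.9. Both concern the passenger miR-29b-1-5p, which was at 0 in most libraries. The chance rate is for continuous values, so these 2 flags cannot be judged against it. DMSO replicate 7 stood at 10.06 CPM, from 3 counts, while the other 6 DMSO libraries had 0. 27HC replicate 6 stood at 7.65 CPM, from 1 count, and the next library with 27HC at 3.16 CPM. These levels lie at or under the limit that a count of 0 allows.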

How the results depend on the processing

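In 27 alternative fits 0 of the miR-29 names were called, and miR-29b-3p and miR-29c-3p kept their direction wherever they were tested. miR-29b-3p dropped out under a mean of at least 100 counts. miR-29a-3p changed sign with no filter on low counts, to −0.045, where the median of the tested names moved from 0.010 to −0.19. The names called, 30 in all, numbered 12 in replicates 5 to 7 alone, 42 in replicates 1 to 4 alone, 39 with a term for these sets, and 21 to 34 with 1 library left out; the cause was not tested. The log2 ratio of miR-29c-3p to miR-29a-3p was past the threshold except in replicates 1 to 4 alone (−0.35) and in replicates 5 to 7 alone (−0.21), which have fewer libraries. Leaving out 1 library gave −0.53 to −0.20 for the log2 ratio of miR-29b-3p to miR-29a-3p, the lowest, without 27HC replicate 2, being the only one past the threshold. The difference in family share, −0.0059 percentage points, ran from −0.035 to 0.014 with 1 library left out. With miR-16-5p taken out of the library totals, another measure, the mean shares were 1.78% in DMSO and 1.82% in 27HC libraries. The difference was then 0.047 percentage points. With the replicate number as a block, 37 names were called and miR-29a-3p, miR-29b-3p and miR-29c-3p were at 0.064, −0.29 and −0.23. The exact sign-flip permutation p of the log2 ratio of miR-29c-3p to miR-29a-3p (−0.29) was then 0.0156, the smallest possible, and that of miR-29b-3p to miR-29a-3p (−0.37) was 0.188. The numbers were not taken to pair the libraries: deviations of the same number correlated from 0.069 to 0.60, and 3 of 7 DMSO libraries and 3 of 7 with 27HC matched best with their own number. Depth limits the passenger strands most, at 0 to 17 counts per library.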

Other observations

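The passenger of the second miR-29b hairpin, miR-29b-2-5p, is not among the 6 names. It had 5 counts over 3 DMSO libraries and 3 counts over 2 libraries with 27HC, so neither miR-29b hairpin could be followed through its passenger. Of the 8 DMSO counts of both miR-29b passengers, 6 were in replicate 7.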
